A study of Mus musculus with 95 samples.

Results

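Expression of 5 genes of the smooth muscle contractile apparatus, Myh11, Tagln, Acta2, Cnn1 and Actg2, was followed across the lungs of mice housed with or without an infected seeder of Pneumocystis murina, a lung fungus of mice. The 5 genes were taken by name as those whose probe sets the platform annotation pairs with 1 of these symbols alone. The rule used no measured value, but the genes were named with earlier results of these data known. Each of the 5 was represented by 1 probe set, out of 8252 named genes on the array. Their probe sets were 97990_at for Myh11, 93541_at for Tagln, 93100_at for Acta2, 99942_s_at for Cnn1 and 93102_f_at for Actg2. The suffixes _s and _f are the manufacturer's marks for probes shared with similar transcripts or a gene family, so the Cnn1 and Actg2 values may include related transcripts.

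The 95 arrays, each of total RNA from lung homogenate, made up 19 groups, and all mice were labelled female and 8 weeks old. C57BL/6 mice (written C57BL in part of the labels) were studied after 7, 14, 21, 32, 34, 41 and 75 days with an infected cage mate, with 8, 8, 6, 3, 10, 10 and 3 arrays. CD40L-KO mice lack CD40 ligand, a T cell surface protein through which T cells activate B cells and phagocytes, and were studied after 32, 35, 39 and 75 days of exposure with 3, 4, 2 and 3 arrays. Unexposed C57BL/6 mice served at days 7, 14, 21, 32, 34 and 41 with 4, 6, 5, 2, 5 and 5 arrays, and unexposed CD40L-KO mice at day 32 and, by their label, at day 14, with 3 and 5 arrays. In experiments 1 to 3, which cover the C57BL/6 mice up to day 41 and the CD40L-KO mice of day 32, exposed and unexposed mice lived in different cages, and a difference between cages cannot be told apart from exposure. Unexposed mice of days 39 and 75 were not analysed here, and the experiment of these days is not stated. The arrays of a group are taken as separate mice, as the animal numbers of the design describe them, and p-values measure the spread between them.

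Smooth muscle cells ring the airways and blood vessels of the lung and set their width by contracting. In them a myosin pulls on actin filaments, calponin and transgelin bind those filaments, and the genes of this machinery are switched on together by serum response factor with its partner myocardin, through a DNA element called the CArG box. Acta2 is also the usual marker of myofibroblasts, the contractile fibroblasts of scarring lung. By role, Myh11 encodes the smooth muscle myosin heavy chain, the motor and the most specific marker of mature smooth muscle. Acta2 and Actg2 encode the alpha actin typical of vascular and the gamma actin typical of enteric smooth muscle. Tagln (transgelin, SM22 alpha) and Cnn1 (calponin) encode actin-binding proteins of the same cells.

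In the RefSeq gene table (GRCm38.p6), Acta2 lies on chromosome 19 from 34240336 to 34255585, Actg2 on chromosome 6 from 83512909 to 83536251, Cnn1 on chromosome 9 from 22099221 to 22109221, Myh11 on chromosome 16 from 14194527 to 14292188 and Tagln on chromosome 9 from 45929628 to 45936058. RefSeq promoter sequence was at hand for 2 of the 5 genes, Acta2 and Cnn1. It is printed because both genes are textbook targets of the CArG box, and it covers the 250 bases before the start of the transcript that the table uses. By the gene coordinates above, both windows reach into the gene, so that start lies inside the gene. Motif positions hold for that start alone. The Acta2 window is chr19:34255374-34255623 on the minus strand and the Cnn1 window is chr9:22099003-22099252 on the plus strand. Capitals mark matches to the CArG box with at most 1 mismatch and to the MCAT element CATTCCT on either strand.
Acta2: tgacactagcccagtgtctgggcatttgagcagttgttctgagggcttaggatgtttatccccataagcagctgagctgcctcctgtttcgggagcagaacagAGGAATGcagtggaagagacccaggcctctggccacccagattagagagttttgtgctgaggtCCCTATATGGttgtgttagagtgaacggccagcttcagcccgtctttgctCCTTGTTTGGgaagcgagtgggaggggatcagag
Cnn1: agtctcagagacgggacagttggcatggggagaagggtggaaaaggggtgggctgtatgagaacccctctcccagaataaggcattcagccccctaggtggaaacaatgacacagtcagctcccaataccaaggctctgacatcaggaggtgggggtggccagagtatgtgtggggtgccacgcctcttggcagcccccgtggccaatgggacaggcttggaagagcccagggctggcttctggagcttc
The Acta2 window held 2 CArG boxes with 1 mismatch, at 84 to 75 and 34 to 25 bases before the start, and 1 MCAT element, on the opposite strand, at 147 to 141 bases. The Cnn1 window held none of these letters, and an exact CArG box was in neither window. Among 32851 promoter windows of the same length in the table, 18.6% held a CArG box with at most 1 mismatch, 1.47% an exact one and 4.51% an MCAT element, and the motifs did not overlap each other in the Acta2 window.

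Array medians lay between 35.5 and 46.3 intensity units, no 2 arrays held identical values (0 pairs), and the number of mice limits the precision. Cd40lg, the deleted gene, had intensities of 0.441 to 5.42 in the 20 CD40L-KO arrays and 0.295 to 5.46 in the 75 C57BL/6 arrays, near the floor in both strains, so this probe set does not check the genotype labels. The lung label was met by lung epithelial markers, of which 6 of 8 were measured and whose mean log2 level was 10.3 to 11.5 in every array. On 16 of the 95 arrays, 4 of the 5 of unexposed C57BL/6 mice at day 34 among them, transcripts of squamous epithelium were present, set by a mean log2 level of Krt4 and Krt13 of at least 7. Values here are deposited intensities, differences are between means of log2(intensity + 8), a scale on which the change of a dim gene comes out too small, and a difference is called where the adjusted p of limma is under 0.05.

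The levels of the 5 genes spanned a modest range across the 19 groups. Group means of log2 intensity spanned 1.38 for Myh11, 1.29 for Actg2, 1.12 for Cnn1, 0.96 for Tagln and 0.80 for Acta2, while the median SD within a group was 0.26, 0.37, 0.44, 0.19 and 0.27 for the same genes. Ordered by mean, Myh11 was highest in unexposed C57BL/6 mice of day 14 (mean log2 level 8.58) and lowest in exposed C57BL/6 mice of day 32 (7.20). Tagln was highest in the same unexposed group of day 14 (9.48) and lowest in exposed CD40L-KO mice of day 35 (8.51). Acta2 stood highest in unexposed CD40L-KO mice of day 32 (9.87) and lowest in exposed C57BL/6 mice of day 41 (9.07). Cnn1 was highest in exposed CD40L-KO mice of day 39 (8.19) and lowest in unexposed C57BL/6 mice of day 34 (7.07). Actg2 was highest in unexposed CD40L-KO mice of day 32 (8.84) and lowest in exposed CD40L-KO mice of day 35 (7.55). Of the 18 steps between neighbours in each order, 1 for Myh11, 1 for Tagln and 0 for the other genes exceeded the larger of the 2 neighbours' SDs, so all other neighbours did not differ beyond their spread. Both such steps lay at the low end, for Tagln between exposed C57BL/6 mice of day 14 and exposed CD40L-KO mice of day 35.

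**Figure D1:**
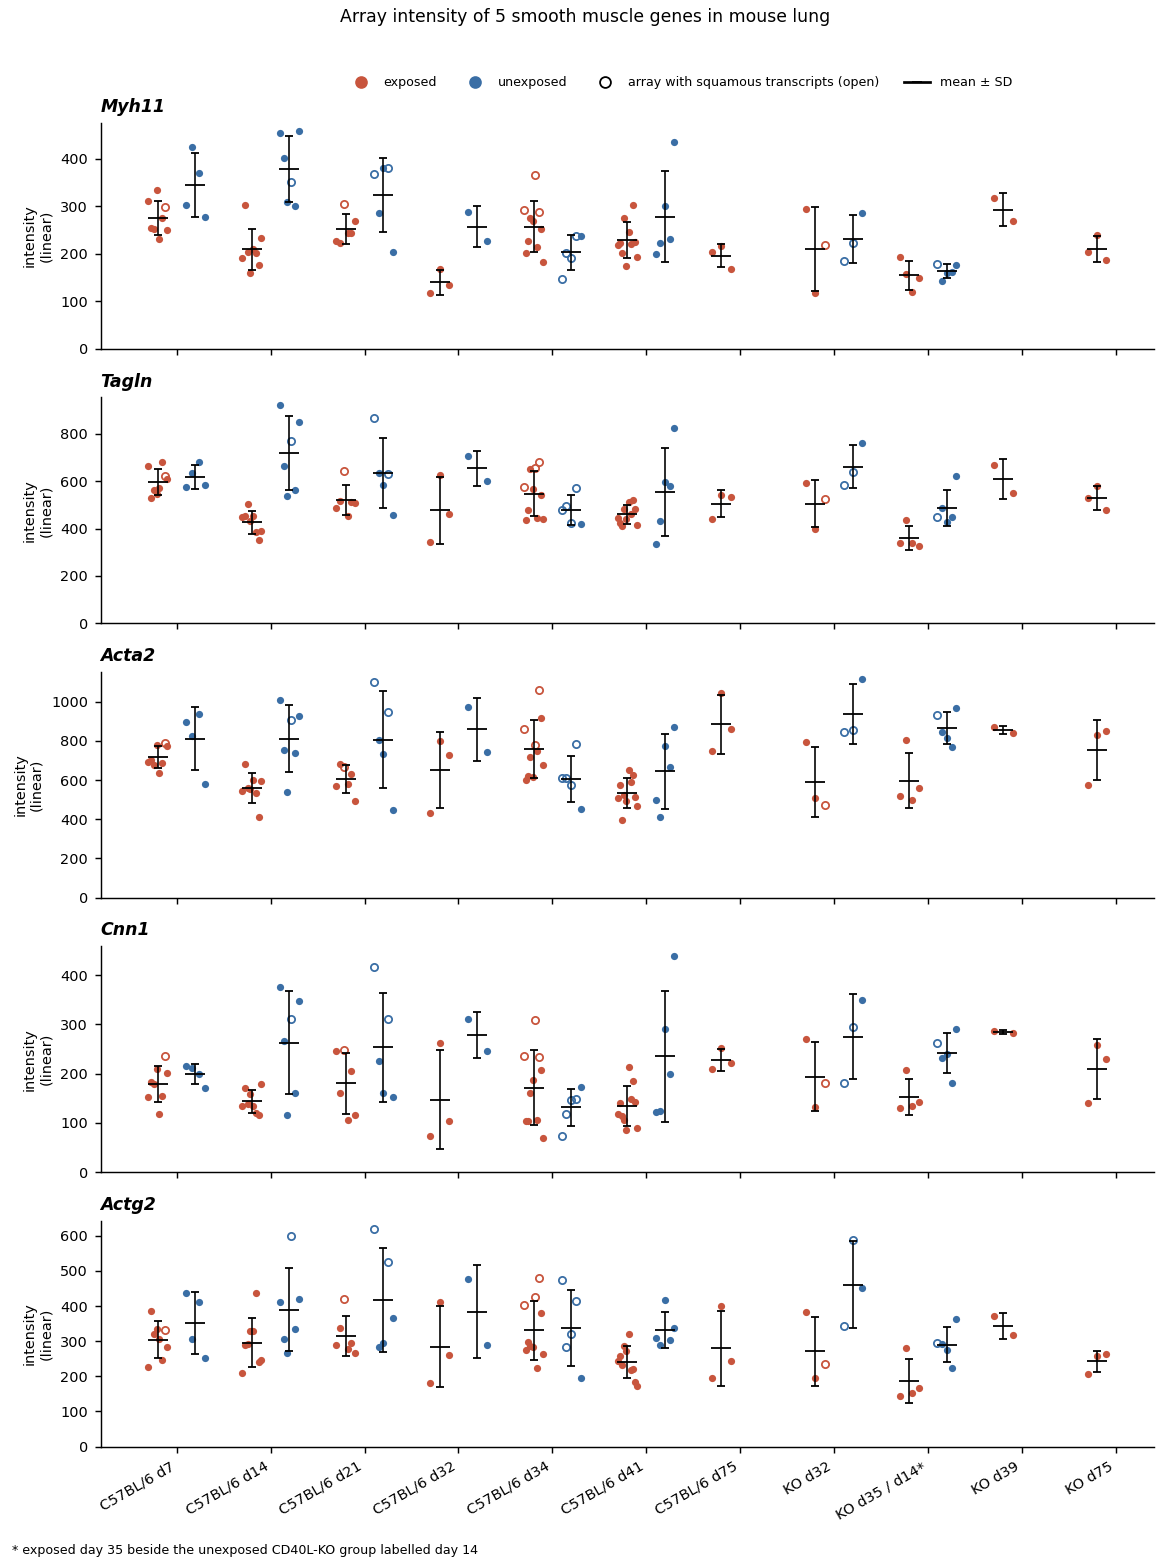
Deposited intensity (linear scale, from 0) of each gene on every array, by strain and day, exposed mice (red) left of unexposed mice (blue), with the mean and SD of each group in black and arrays with squamous transcripts as open circles. At day 14 in C57BL/6 mice all 8 exposed arrays of Tagln sit at or below 502, and all 6 unexposed arrays at or above 540.

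Day 14 of exposure in C57BL/6 mice was the time at which members passed the test, and 2 of the 5 fell there. Myh11 and Tagln fell to about 0.55 and 0.59 of the unexposed mean intensity. In all, 22 of 8252 genes were called at this day (0.267%), 4 of them lower (0.0485%), and the other two lower genes were Per2, a circadian clock gene, and Kdelr1, a receptor that returns proteins to the endoplasmic reticulum, both named after their values were seen. In homogenate, fewer smooth muscle cells and less RNA per cell cannot be told apart.

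Myh11 had intensities of 161 to 302 with a median of 203 on the 8 exposed arrays of day 14, against 300.5 to 459 with a median of 376 on the 6 unexposed arrays. Of the exposed arrays 7 of 8 lay below the lowest unexposed array, and the remaining exposed array, replicate 2, lay just above it. The mean was 210 ± 43.4 in exposed and 379 ± 69.7 in unexposed mice (SD, n = 8 and 6), 44.6% lower, and the log2 difference was -0.83 (SE 0.135, 95% interval -1.11 to -0.56, limma adjusted p = 0.00103).

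Tagln had 353 to 502 with a median of 440 on the exposed arrays, against 540 to 924 with a median of 718 on the unexposed arrays. The groups did not overlap, which held for 4 of 8252 genes at this day (0.0485%): Tagln, Agr2, Kdelr1 and Siva1, the last 3 named after their values were seen. The mean was 427 ± 48.0 in exposed and 719 ± 156 in unexposed mice (SD, n = 8 and 6), 40.6% lower, with a log2 difference of -0.72 (SE 0.114, 95% interval -0.95 to -0.49, limma adjusted p = 0.00103).

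The 3 other genes did not pass the test at day 14. Cnn1 had 116 to 179 with a median of 136 on the exposed arrays, against 115 to 376 with a median of 288 on the unexposed arrays, a log2 difference of -0.74 (95% interval -1.20 to -0.28, limma adjusted p = 0.220). The unexposed arrays were widely spread, and 1 of them, at 160, lay among the exposed ones and another, at 115, lay just below them all. Acta2 had 410 to 680 with a median of 556 on the exposed arrays, against 538 to 1006 with a median of 830 on the unexposed arrays, a log2 difference of -0.51 (95% interval -0.81 to -0.22, limma adjusted p = 0.153). Actg2 had 209 to 436 with a median of 290 on the exposed arrays, against 265 to 600 with a median of 373 on the unexposed arrays, a log2 difference of -0.37 (95% interval -0.73 to -0.01, limma adjusted p = 0.613). For Acta2 and Cnn1 8 of 8 exposed arrays, and for Actg2 7 of 8, lay below the unexposed mean, and all 5 genes had negative differences beside a median of -0.00 over all genes. Unexposed replicate 3, which had the lowest Acta2, Cnn1, Tagln and Actg2 of its group, decided part of this: without it Acta2 (-0.63, limma adjusted p = 0.0468) and Cnn1 (-0.94, limma adjusted p = 0.0473) passed as well.

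Markers of cardiac muscle and of squamous epithelium also differed in level between these arrays, without passing the test. Which part of the homogenate these transcripts came from was not tested. Cardiac muscle markers, of which 10 of 10 were measured and none was near the floor, had a mean log2 level of 6.18 to 9.41 (mean 7.28) on the exposed arrays of day 14, against 7.01 to 9.59 (mean 8.19) on the unexposed arrays. All 10 had negative differences, with a median of -1.03, and none was called. Squamous markers, 14 of 19 measured with 3 near the floor, had a mean log2 level of 5.26 to 5.95 on exposed and 5.38 to 8.67 on unexposed arrays, of which 1 of 6 carried squamous transcripts. With the cardiac score as a covariate, an alternative chosen after seeing the data, Myh11 had a log2 difference of -0.69 (limma adjusted p = 0.00353) and Tagln of -0.63 (limma adjusted p = 0.00366), and both still passed. Without the arrays with squamous transcripts the differences were -0.85 for Myh11 and -0.69 for Tagln, again called.

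On days 7 and 21, from the same experiment, no member passed the test, as for every other gene (0% of 8252 called on either day). At day 7 the log2 differences were -0.30 for Myh11 (95% interval -0.61 to 0.01) and -0.05 for Tagln (-0.31 to 0.21), and those of Acta2, Cnn1 and Actg2 were -0.16, -0.17 and -0.18. Myh11 had 232 to 334 with a median of 265 on the 8 exposed arrays, against 277, 304, 371 and 426 on the 4 unexposed arrays of day 7. Tagln had 530 to 681 on exposed arrays, against 576, 583, 634 and 681 on unexposed ones, and the groups lay over each other. At day 21 the differences were -0.32 for Myh11, -0.26 for Tagln, -0.36 for Acta2, -0.44 for Cnn1 and -0.35 for Actg2. Myh11 had 222 to 305 with a median of 245 on the 6 exposed arrays of day 21, against 205, 287, 369, 381 and 381 on the unexposed arrays, so that 1 unexposed array lay below all exposed ones. The cardiac markers had a median difference of -0.63 at day 7, with 9 of 10 below 0, and of -0.79 at day 21, with 10 of 10.

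The change of the exposure difference between days was tested directly and was not called for any member (0 of 8252 genes, 0%, called in either test). From the difference at day 14 that at day 7 was subtracted, which gave -0.67 for Tagln (95% interval -1.02 to -0.32, limma adjusted p = 0.217) and -0.53 for Myh11 (-0.94 to -0.12, limma adjusted p = 0.491). Day 21 minus day 14 gave 0.51 for Myh11 (95% interval 0.09 to 0.92) and 0.46 for Tagln (0.11 to 0.81), both with a limma adjusted p of 0.903. The calls at day 14 are therefore not shown to differ from days 7 and 21. Unexposed mice of day 14 minus those of day 7 differed by 0.14 for Myh11 and 0.19 for Tagln (limma adjusted p = 0.937 and 0.902), and unexposed day 21 minus day 14 by -0.24 and -0.18 (limma adjusted p = 0.751 and 0.782). In these 2 comparisons 0.0242% and 0% of all genes were called.

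**Figure D2:**
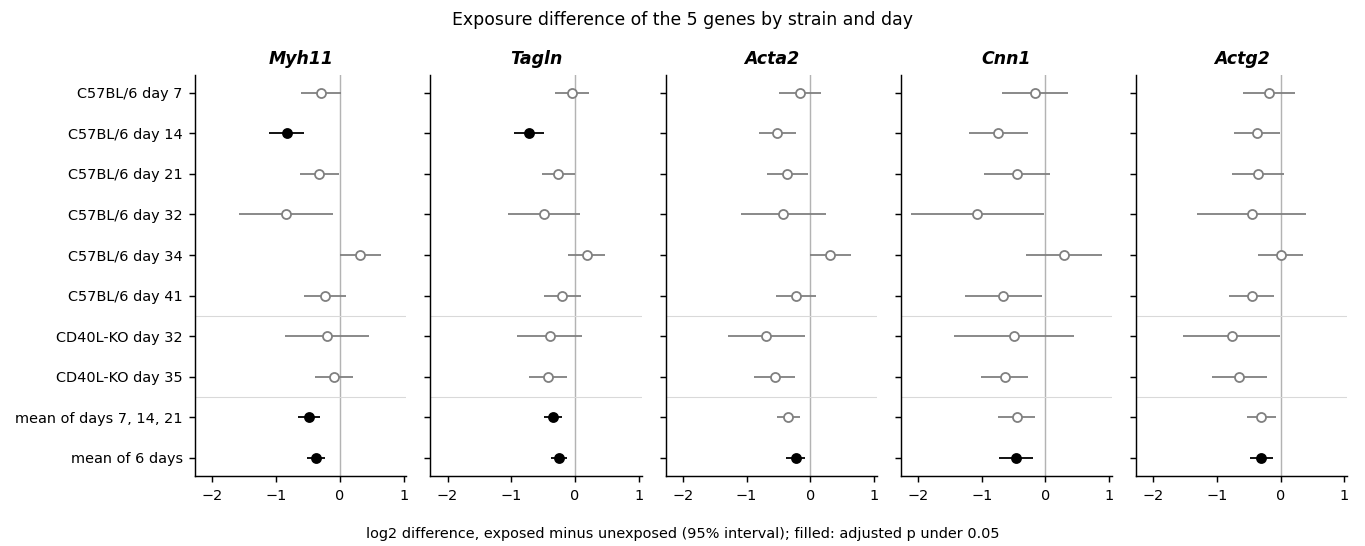
Log2 difference of exposed minus unexposed mice for each gene (x axis, with 95% intervals) by strain and day and for the averages over C57BL/6 days (y axis); filled black points have an adjusted p under 0.05. Myh11 and Tagln are filled at day 14, at -0.83 and -0.72, and day 34 is the row where 4 of the 5 points lie to the right of 0.

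At day 32 in C57BL/6 mice no member passed, where 1.65% of genes were called, and the group of 2 unexposed arrays leaves wide intervals. Myh11 had 117, 134 and 169 on the 3 exposed arrays, against 227 and 288 on the 2 unexposed arrays, a log2 difference of -0.85 (95% interval -1.59 to -0.11, limma adjusted p = 0.225). The arrays of Myh11 did not overlap, but with so few arrays every exposed array lay below every unexposed one for 17.4% of all genes. When all 95 arrays shared 1 fit, this difference passed (limma adjusted p = 0.0195). Cnn1 had 74.2, 104 and 262 on exposed arrays, against 246 and 311 on unexposed ones, a log2 difference of -1.07 (95% interval -2.12 to -0.02, limma adjusted p = 0.278). Exposed replicate 2, the array at 262, decided this: without it the difference was -1.56 (limma adjusted p = 0.0378). Tagln, Actg2 and Acta2 differed by -0.49, -0.46 and -0.43.

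Of the 8 comparisons of exposed with unexposed mice, the cardiac markers were furthest apart in this one. Their mean log2 level was 5.67 to 7.49 on the exposed and 7.70 to 9.56 on the unexposed arrays of day 32, with 10 of 10 genes below 0 and a median of -2.11. With the cardiac score as a covariate the differences were -0.23 for Myh11, 0.02 for Tagln, 0.18 for Acta2, 0.06 for Cnn1 and 0.59 for Actg2, none of them called. No array of these 2 groups carried squamous transcripts. Marker medians were also -0.44 for endothelium (8 of 8 below 0), -0.39 for fibroblasts (7 of 8) and -0.32 for lung epithelium (6 of 6). Those of pericyte, skeletal muscle, squamous and cartilage markers were -0.47, -0.22, -0.03 and -0.03, and none of these lists held a call. Leukocyte markers had a median of 1.15, with 2 called higher.

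Day 34 was the only C57BL/6 day on which 4 of the 5 members had positive differences, and none passed the test, while 8.22% of all genes did. Acta2 had 598 to 1060 with a median of 733 on the 10 exposed arrays, against 454, 574, 610.5, 612 and 783 on the 5 unexposed arrays, a log2 difference of 0.32 (95% interval 0.00 to 0.63, limma adjusted p = 0.203). Myh11 had 183 to 366 with a median of 260, against 147, 192, 202, 237 and 238, a log2 difference of 0.32 (95% interval -0.00 to 0.65, limma adjusted p = 0.211). Cnn1, Tagln and Actg2 differed by 0.29, 0.18 and -0.00. Squamous transcripts were on 3 of 10 exposed and 4 of 5 unexposed arrays. Among the exposed mice Myh11 was 289, 293 and 366 on the 3 arrays with such transcripts and 183 to 276 on the 7 others, and Actg2 was 402, 426 and 480 against 222 to 379. Among the unexposed mice Myh11 was 147 to 237 on the 4 arrays with such transcripts and 238 on the other, Cnn1 was 72.6 to 148 and 172, and Actg2 was 283 to 474 and 196, so that Myh11 and Cnn1 stood in the opposite order there. As a sign of RNA quality, the Gapdh signal near the 3' end over that near the 5' end, as a log2 ratio, was -0.16 to 1.59 on the exposed and 0.27 to 2.13 on the unexposed arrays. With it as a covariate the differences were 0.33 for Acta2, 0.13 for Myh11, 0.12 for Tagln, -0.11 for Cnn1 and -0.00 for Actg2, none called. Without these arrays 1 unexposed array remains, assumed to vary like the other groups, and the differences were -0.05 for Myh11, 0.26 for Tagln, 0.60 for Acta2, -0.42 for Cnn1 and 0.51 for Actg2, none called.

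At day 41, in the same experiment, all 5 differences were negative and none passed (0.388% of genes called). Actg2 had 172 to 322 with a median of 237 on the 10 exposed arrays, against 289, 305, 308, 338 and 418 on the unexposed arrays, a log2 difference of -0.46 (95% interval -0.82 to -0.10, limma adjusted p = 0.445). Of the exposed arrays 9 of 10 lay below the lowest unexposed array. Cnn1 had 86.4 to 214 with a median of 128, against 122, 125, 199, 291 and 439, a log2 difference of -0.66 (95% interval -1.26 to -0.06, limma adjusted p = 0.579). Myh11, Acta2 and Tagln differed by -0.24, -0.23 and -0.20. For Tagln 10 of 10 exposed arrays, at 412 to 520, lay below the unexposed mean of 554, while the unexposed arrays ran between 335 and 826. The cardiac markers had a median difference of -0.76, with 10 of 10 below 0. The change of the exposure difference, day 41 minus day 34, was -0.56 for Myh11, -0.54 for Acta2, -0.95 for Cnn1, -0.46 for Actg2 and -0.39 for Tagln, with limma adjusted p-values of 0.349 to 0.524 (0.109% of genes called). Unexposed mice of day 41 minus those of day 34 differed by 0.40 for Myh11 and 0.69 for Cnn1, neither called (limma adjusted p = 0.228 and 0.267, 2.44% of genes called).

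In CD40L-KO mice all 5 differences were negative at both times, and none was called. The actins had the most negative values at day 32, and Actg2 and Cnn1 at day 35. At day 32 Acta2 had 471, 506 and 796 on the 3 exposed arrays, against 843, 856 and 1116 on the 3 unexposed arrays, a log2 difference of -0.69 (95% interval -1.28 to -0.09, limma adjusted p = 0.303). These groups did not overlap, as for 7.06% of all genes. Actg2 had 196, 236 and 382, against 343, 451 and 589, a log2 difference of -0.77 (95% interval -1.53 to -0.01, limma adjusted p = 0.357). Myh11, with 117, 218 and 294 on exposed and 186, 223 and 286 on unexposed arrays, differed by -0.20 (95% interval -0.87 to 0.46). Cnn1 and Tagln differed by -0.49 and -0.40, and 0.0727% of genes were called. One exposed and 2 unexposed arrays of these groups carried squamous transcripts, and skeletal muscle markers, with 16 of 16 measured, had a median difference of -1.74. Without these 3 arrays, which leaves 1 unexposed array, assumed to vary like the other groups, the differences were -0.81 for Acta2, -0.70 for Actg2 and -0.59 for Myh11. The cardiac markers had a median difference of -0.56, with 10 of 10 below 0.

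Exposed CD40L-KO mice of day 35 were set beside 5 unexposed CD40L-KO mice labelled day 14, where no gene was called (0%). That these 5 are the controls of the day 35 mice rests on their strain and number alone, which match those the design gives for experiment 4, so a difference in day or experiment between the groups cannot be told apart from exposure. Acta2 had 501, 520, 559 and 803 on the 4 exposed arrays, against 767, 813, 845, 932 and 966 on the 5 unexposed arrays, a log2 difference of -0.55 (95% interval -0.88 to -0.23, limma adjusted p = 0.354). Cnn1 had 129, 134, 142 and 208, against 182, 233, 240, 263 and 291, a log2 difference of -0.64 (95% interval -1.01 to -0.27, limma adjusted p = 0.354). Actg2 had 145, 154, 167 and 279, against 225, 275, 293, 294 and 364, a log2 difference of -0.65 (95% interval -1.08 to -0.22, limma adjusted p = 0.386). Tagln had 327, 338, 338 and 438, against 429, 448, 451, 489 and 621, a log2 difference of -0.43 (95% interval -0.72 to -0.13, limma adjusted p = 0.403). In each of these 4 genes 3 of 4 exposed arrays lay below the lowest unexposed array, and exposed replicate 2 was the high array. Myh11 had 121, 149, 157 and 194, against 142, 160, 162, 177 and 179, a log2 difference of -0.09 (95% interval -0.39 to 0.20), so its arrays lay over each other. Unadjusted, 4 of the 5 members had p under 0.05, as did 771 of 8252 genes. The median cardiac difference here was 0.01, with 5 of 10 genes below 0, and the cardiac score was highest on exposed replicate 2, at 9.30, in an exposed group that ran between 7.48 and 9.30.

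Whether the strains responded differently at day 32 was tested as the exposure difference in CD40L-KO minus that in C57BL/6 mice. It was 0.64 for Myh11 (95% interval -0.35 to 1.64), 0.58 for Cnn1 (-0.83 to 1.98), 0.09 for Tagln (-0.67 to 0.86), -0.26 for Acta2 (-1.16 to 0.64) and -0.31 for Actg2 (-1.46 to 0.83), none of them called (limma adjusted p = 0.541 to 0.929, 0.17% of genes called). Unexposed CD40L-KO and unexposed C57BL/6 mice of day 32 differed by -0.16 for Myh11 to 0.27 for Actg2, none called (0.0485% of genes called).

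Among the exposed mice of the late days no member passed. CD40L-KO minus C57BL/6 at day 75 gave differences of -0.24 for Acta2 to 0.09 for Myh11 (0.327% of genes called). In CD40L-KO mice, day 75 minus day 39 gave -0.47 for Myh11, which had 186, 204 and 240 at day 75 against 269 and 317 at day 39, -0.50 for Actg2, -0.47 for Cnn1, -0.21 for Acta2 and -0.20 for Tagln (3.42% of genes called). Myh11, Actg2 and Cnn1 did not overlap there, as for 21% of all genes, and the cardiac score was 6.92 to 7.87 at day 75 against 8.61 to 8.75 at day 39. The Gapdh log2 ratio did not overlap either, with 0.14 to 0.27 at day 75 against 0.40 to 0.50 at day 39. With that ratio as a covariate 0.0121% of genes were called. In C57BL/6 mice, day 75 minus day 32 gave 0.79 for Cnn1 (95% interval 0.01 to 1.58, limma adjusted p = 0.158), 0.47 for Myh11, 0.47 for Acta2, 0.12 for Tagln and -0.01 for Actg2, in a comparison where 17.9% of genes were called. Cnn1 was at 209, 223 and 253 at day 75 against 74.2, 104 and 262 at day 32, and without exposed replicate 2 of day 32 its difference was 1.29 (limma adjusted p = 0.00917). The cardiac score was 7.64 to 8.14 at day 75 against 5.67 to 7.49 at day 32, and with it as a covariate the differences were 0.07 for Cnn1, 0.10 for Myh11 and 0.06 for Acta2, while that of Actg2 was -0.67 (limma adjusted p = 0.0469). In these groups the Gapdh log2 ratio was 0.14 to 0.26 at day 75 against -0.10 to 0.04 at day 32. With that ratio as a covariate 3.6% of genes were called.

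Averaged with equal weight over the days, the exposure difference in C57BL/6 mice was negative for all 5 genes. These averages were added after the values of single days were known, include day 14 and share its arrays, and so are no independent support for it. Over days 7, 14 and 21 the average was -0.49 for Myh11 (95% interval -0.66 to -0.31, limma adjusted p = 0.00217) and -0.34 for Tagln (-0.49 to -0.20, limma adjusted p = 0.00912), both called, where 0.969% of genes were called and 0.182% were lower. Acta2 (-0.34, limma adjusted p = 0.0565), Cnn1 (-0.45, limma adjusted p = 0.133) and Actg2 (-0.30, limma adjusted p = 0.228) did not pass. Over the 6 days between 7 and 41 all 5 were lower, beside 13.6% of genes called and 5.53% lower. The average was -0.46 for Cnn1 (95% interval -0.73 to -0.20, limma adjusted p = 0.0101) and -0.37 for Myh11 (-0.51 to -0.23, limma adjusted p = 7.5e-05). It was -0.30 for Actg2 (95% interval -0.48 to -0.12, limma adjusted p = 0.0144), -0.26 for Tagln (-0.38 to -0.13, limma adjusted p = 0.00264) and -0.23 for Acta2 (-0.38 to -0.08, limma adjusted p = 0.0293). Without day 14, Myh11 (-0.28, limma adjusted p = 0.0137) and Actg2 (-0.29, limma adjusted p = 0.0457) still passed, and Tagln (-0.16, limma adjusted p = 0.134), Cnn1 and Acta2 did not. Without the arrays with squamous transcripts Myh11, Cnn1 and Tagln passed, and Acta2 (-0.14) and Actg2 (-0.16) did not.

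Cardiac muscle transcripts moved in the same direction in this average: 10 of 10 markers were below 0, 7 of them called, with a median of -0.89. With the cardiac score as a covariate Myh11 alone passed over the 6 days, at -0.23 (limma adjusted p = 0.00664). Tagln was at -0.15, Cnn1 at -0.19, Actg2 at -0.14 and Acta2 at -0.06, with limma adjusted p-values of 0.0923, 0.306, 0.312 and 0.559. Over days 7, 14 and 21 with that covariate Myh11 again was the member that passed, at -0.37 (limma adjusted p = 0.0218).

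**Figure D3:**
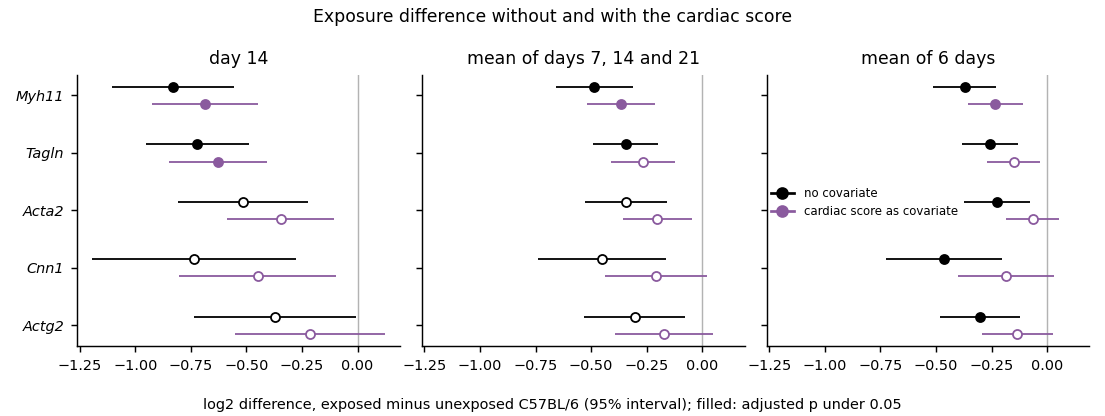
Log2 difference of exposed minus unexposed C57BL/6 mice (x axis, with 95% intervals) of the 5 genes at day 14 and in the averages over 3 and 6 days, without a covariate (black) and with the cardiac score as a covariate (purple); filled points have an adjusted p under 0.05. Every purple point lies nearer to 0 than its black one, and Myh11 is filled in all 3 panels under both fits.

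Within groups, the 5 genes varied with the cardiac score from mouse to mouse. After each array's value was taken as the deviation from its group mean, Pearson's r over the 95 arrays was 0.68 for Acta2, 0.67 for Cnn1, 0.61 for Actg2, 0.57 for Myh11 and 0.52 for Tagln, and Spearman's rho was 0.72, 0.71, 0.63, 0.58 and 0.53. Each had a two-sided permutation p of 1e-05 within groups, the smallest that 100000 resamples can give, and 2.2e-05 after Benjamini-Hochberg adjustment over the 20 relations computed. Without the 2 arrays farthest from the median score r was 0.52 to 0.68, and within the experiments it was 0.66 to 0.96 in experiment 1 (11 arrays), 0.55 to 0.70 in experiment 2 (30 arrays), 0.46 to 0.70 in experiment 3 (37 arrays) and 0.34 to 0.78 in experiment 4 (9 arrays). In the 79 arrays without squamous transcripts r was 0.43 to 0.63. With the skeletal muscle score r was lower for each gene over all arrays, at 0.53 for Actg2 and 0.19 to 0.31 for the other genes. In those 79 arrays it was 0.05 to 0.20. The Actg2 probe set is marked as shared with a gene family, and the skeletal list holds another actin gene, Acta1. Whether the Actg2 values include signal of that gene was not tested. The share of all genes that vary as closely with the cardiac score is not given here. Genes outside the cardiac list, Ltf (r = 0.79) and Gsto1 (0.78), varied within groups with the mean of the 5 as closely as the cardiac Myl7 (0.77) did. These relations were chosen after seeing the data, and whether the exposure differences come from the cardiac transcripts was not tested.

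**Figure D4:**
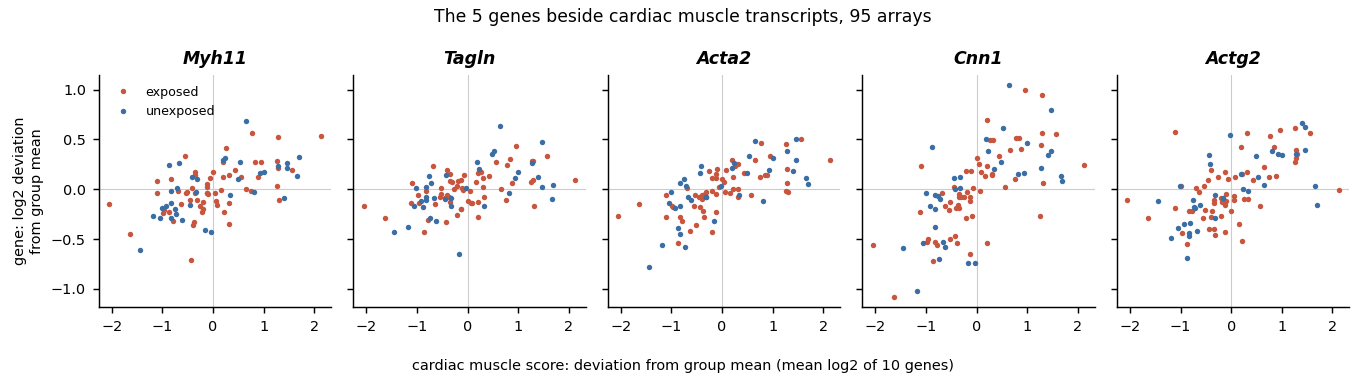
Deviation of each gene from its group mean (y axis, log2) against the deviation of the cardiac muscle score, the mean log2 level of 10 marker genes (x axis), on 95 arrays of exposed (red) and unexposed (blue) mice. The points rise to the right in every panel, with Pearson's r between 0.52 for Tagln and 0.68 for Acta2.

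The 5 genes varied together. Within groups, over 95 arrays, r between pairs of members was 0.74 for Tagln and Cnn1, 0.74 for Tagln and Acta2, 0.72 for Acta2 and Cnn1 and 0.70 for Myh11 and Cnn1, with the lowest value, 0.32, between Myh11 and Actg2. Over the 19 group means r ran between 0.33, for Myh11 and Acta2, and 0.85, for Tagln and Actg2. These are descriptions over arrays that share scaling and tissue.

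The genes whose 19 group means were most like the mean of the 5, among 4121 genes brighter than the median gene, were Myl9 (r = 0.89), Gpc1 (0.84), Nppa (0.83), Mfn1 (0.82), Ndrg4 (0.77), Ndrg2 (0.75), Cox6a2 (0.74) and Myl4 (0.74). The median gene had r = 0.04 and 1% of genes lay above 0.65. Myl9 encodes the regulatory light chain of smooth muscle myosin, Nppa atrial natriuretic peptide, Myl4 the atrial myosin light chain and Cox6a2 the heart and skeletal muscle form of a cytochrome oxidase subunit. Gpc1 is a heparan sulfate proteoglycan and Mfn1 fuses mitochondria. Myl9 itself differed by -0.31 at day 14, uncalled, and by -0.23 in the average of 6 days (limma adjusted p = 0.00599).

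Other genes of smooth muscle, were taken in 3 lists chosen by role. Of the contractile and cytoskeletal list 24 of 32 genes were measured, of the regulators 23 of 28 and of the genes of tone and its signalling 22 of 38. At day 14 none of them passed, where 0.267% of all genes were called. Of these lists 17 of 24, 9 of 23 and 12 of 22 genes were below 0, with medians of -0.12, 0.03 and -0.03, beside 50.9% of all genes below 0. Days 7, 21 and 41 and both CD40L-KO comparisons had 0 calls in these lists as well. The share of all genes called was 0% at days 7 and 21 and 0.388% at day 41. In CD40L-KO mice it was 0.0727% at day 32 and 0% at day 35. With so few genes called, 0 calls in these lists says little about them. At day 32 more of them had negative values, 20 of 24, 16 of 23 and 18 of 22 with medians of -0.27, -0.22 and -0.29, and 1 was called where 1.65% of all genes were: Csrp2, a LIM protein that partners serum response factor, fell by 0.88 (limma adjusted p = 0.0353). At day 34, where 2.96% of all genes were lower, Fhl1 fell by 0.51 and Vcl, the adhesion protein vinculin, by 0.47. Notch3, a receptor of mural cells, fell by 0.58, the growth factor Tgfb2 by 0.42 and the endothelin receptor Ednrb by 0.82. On that day 3 of 10 exposed but 4 of 5 unexposed arrays carried squamous transcripts. Skeletal muscle markers had a mean log2 level of 5.78 on the exposed and 6.98 on the unexposed arrays. Whether these 5 falls come from that imbalance was not tested. In exposed C57BL/6 mice of day 75 against day 32, where 17.9% of all genes were called, 6 of 24 contractile genes were higher and none lower, 3 of 23 regulators were higher and 3 lower, and 2 of 22 genes of tone were higher and none lower.

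In the average of 6 days, where 13.6% of all genes were called and 5.53% were lower, 4 of the 24 contractile genes were lower and none was higher: Pdlim3 (-0.37), Des (-0.36), Myl9 (-0.23) and Fhl1 (-0.21). Desmin, the product of Des, is the intermediate filament protein of all muscle types, cardiac muscle included. Of the 23 regulators 5 were lower, Notch3 (-0.33), Klf5 (-0.24) and Csrp2 (-0.27) by the smallest p among them, and 2 were higher, with the cytokine Tgfb1 at 0.43 (limma adjusted p = 0.000113). Of the 22 genes of tone 3 were lower, the potassium channel Kcnma1 (-0.23), the calcium pump Atp2a2 (-0.69), also the pump of heart muscle, and the prostaglandin receptor Ptgfr (-0.28). Leukocyte markers, with 5 of 6 measured, had a median of 0.55 in this average with 4 called higher. Single markers outside muscle were called lower as well: fibroblast Dcn (-0.53) and Lum (-0.53), endothelial Pecam1 (-0.33) and lung epithelial Cyp2f2 (-0.32). Their lists did not move as 1 between days. At days 7, 14, 21 and 32, 5, 2, 1 and 8 of 8 endothelial markers were below 0. For lung epithelium 1, 4, 3 and 6 of 6 were below 0, and for fibroblasts 3, 8, 7 and 7 of 8. These 4 genes were named after their values were seen, and the other genes of their lists were not called.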

How the data were processed

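The deposited intensities, 1 linear value per probe set and array on a single-colour Affymetrix platform, were used as the authors gave them; per the labels' protocols, RNA was transcribed in vitro and labelled with biotin, and how probes were summarised is not stated there. By the values, each array had been scaled to a trimmed mean of 100.06 to 100.08 (2% left out at each end). Of 12487 probe sets 10855 had 1 gene symbol in the platform annotation, 396 had several and 1236 none, and 10838 named sets matched the RefSeq gene table. The brightest probe set stood for each of 8252 genes. Values entered as log2(intensity + 8), where 8 lies just above the 20th percentile of all values, 6.76, and 1 missing value was left out.

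Groups were compared with limma 3.58.1 (R 4.3.3, lmFit and eBayes) within the arrays of an experiment, or of the 7 groups of days 32, 39 and 75, with Benjamini-Hochberg adjustment over all genes and a threshold of 0.05. The averages over days used the C57BL/6 groups of experiments 1 to 3. Spots carry no background flags or depth here, so the number of arrays limits the precision. Relations with the cardiac score used deviations from group means and 100000 permutations within groups. Simulated data had the noise of each gene drawn independently, and 50 genes each changed by a log2 of 0.5, 1, 2 and 3. In the real data genes varied together and 22 were called at day 14. Recovery on simulated data may therefore come out too high and false calls too few. For day 14, 29 of 50 genes changed by a log2 of 0.5 and 46 of 50 changed by 1 were recovered, with 9 false calls. Recovery was poorer at day 32 in C57BL/6 mice, where 1 of 50 and 25 of 50 were found. It was 19 and 42 of 50 in CD40L-KO mice of day 35, and 20 and 44 of 50 in C57BL/6 mice of day 34. False calls numbered 10 at day 32, 10 at day 35 and 4 at day 34. An uncalled difference of this size at day 32 is therefore weak evidence of no change. Other software was Python 3.11.15, pandas 2.3.3, numpy 2.4.6, scipy 1.17.1 and matplotlib 3.10.9.

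The genes, the lists of other smooth muscle genes and the marker lists were chosen with earlier results of these data known. Named beside the 5 genes are, in each comparison of exposed with unexposed mice, up to 4 called genes per list by smallest p, and the 8 genes most like the mean of the 5. Replicate numbers are shared between groups. Same-numbered pairs of arrays deviated together with correlations of -0.09 to 0.20 at day 14, where 3 of 6 were over 0.1. The highest were 0.51 at day 7, 0.40 at day 34 and 0.30 at day 21. In no comparison was every pair over 0.1, and the main fits have no block for the number. That rule cannot exclude a pairing of some arrays, so a replicate block was among the alternatives. Alternatives were other offsets (2 and 32), leaving out dim genes, quantile normalization, 1 fit of all arrays, other probe set rules, a replicate block, marker scores and the Gapdh 3'/5' ratio as covariates, and leaving out arrays.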

Additional observations from a re-analysis of the deposited data

Results flagged for a closer look

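Among 60 tests for a lone high or low array, over the 5 genes in groups of 4 to 10 arrays, 1 array stood apart, where chance gives about 1 in 20. Tagln was 438.1 on replicate 2 of the exposed CD40L-KO mice of day 35, and the nearest of the 3 other arrays was at 337.9, so that the gap took 0.886 of the range of the group. This array also had the highest Acta2, Cnn1 and Actg2 of its group, its cardiac score of 9.30 was the highest there, and it carried no squamous transcripts.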

How the results depend on the processing

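The number of the 5 genes called was recomputed in 620 settings over 21 comparisons and stayed within 1.5 times the reported count in 604, and no called difference turned its sign. The reported count was above 0 only at day 14 and in the averages over 3 and 6 days. Elsewhere it was 0, and a count that stayed at 0 is among the 604, so that number says little about the calls. At day 14 Myh11 and Tagln were called in 14 of 14 fits that each left out 1 array, with log2 differences of -0.91 to -0.77 and -0.80 to -0.64, and the count ran between 2 and 4, the 4 without unexposed replicate 3. At day 32 in C57BL/6 mice the count of 0 was 1 with all arrays in 1 fit, and 0 to 1 with 1 array left out, the 1 without exposed replicate 2. For day 75 against day 32 it was 1 with the cardiac score as a covariate and 0 to 1 with 1 array left out. Over days 7, 14 and 21 the count of 2 was 1 with the cardiac score, and 2 to 4 with 1 array left out, the 4 without unexposed replicate 3 of day 14. Over 6 days the count of 5 was 3 with the squamous score, 3 with the squamous and skeletal scores and 3 without the arrays with squamous transcripts, 1 with the cardiac score, 2 without day 14, 3 without day 32, 3 without day 41, and 3 to 5 with 1 array left out, the 3 without exposed or without unexposed replicate 1 of day 32. Beyond the fewer arrays or the added covariate, the cause was not tested. Of 3100 member values 116 that were not called turned sign. With the replicate number as a block, Myh11 (-0.83) and Tagln (-0.70, limma adjusted p = 0.00491) stayed called at day 14, and over 6 days Actg2 (-0.28, limma adjusted p = 0.0509) was the member that lost its call. Counts of all genes called depended more on the setting: 22 at day 14 (10 to 51), 136 at day 32 (1 with the cardiac score to 733 with all arrays in 1 fit), 678 at day 34 (17 without squamous arrays to 1313), 6 in CD40L-KO mice at day 32 (0 to 86) and 1119 over 6 days (571 to 1374). The other ranges were 0 to 5 at day 7, 0 to 7 at day 21, 18 to 96 at day 41 (reported 32), 0 to 21 in CD40L-KO mice at day 35, 28 to 134 over 3 days (reported 80), 1 to 918 for unexposed day 41 against day 34 (reported 201), 1 to 426 for CD40L-KO day 75 against day 39 (reported 282) and 297 to 1838 for C57BL/6 day 75 against day 32 (reported 1478). The 1 for CD40L-KO day 75 against day 39 and the 297 came with the Gapdh ratio as a covariate.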

Other observations

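Within groups, the genes that varied most like the mean of the 5 over 95 arrays were Ltf (r = 0.79), Gsto1 (0.78), Myl7 (0.77), Myl4 (0.76), Csrp3 (0.75), Actc1 (0.75) and Tnnt2 (0.75), named after their values were seen. Myl7 and Myl4 encode atrial myosin light chains, and Csrp3, Actc1 and Tnnt2 encode proteins of the cardiac sarcomere. Ltf encodes lactoferrin, a secreted protein of airway glands and neutrophils.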
